A study of Mus musculus with 15 samples.

Results

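The transcripts described here are those of the 4 adult globin genes of the mouse, Hba-a1, Hba-a2, Hbb-bs and Hbb-bt, and of Alas2, the haem synthesis enzyme of developing red cells. They were picked by symbol, as 5 of the 36118 gene identifiers in the table, and were followed through all 15 libraries as a gauge of how much red cell RNA each whole testis carried. Each of 5 groups of C57/BL6 mice gave 3 RNA-seq libraries of whole testis: a Control group and groups labelled MTX, HMS-I1, AA or TSA for their treatment, in a series on histone modifications in meiosis. What the abbreviations stand for, the dose, the age and the length of treatment are not in the labels. The 3 libraries titled HMS-I1 carry different entries in their treatment field (HMS-I1 for the first, HMS-I2 for the second, HMS-I3 for the other), and the titles were followed. No label says that the libraries of a group come from separate animals, so p-values here reflect the variation among these samples, part or all of which could be technical.

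Haemoglobin is built from alpha-type and beta-type globin chains, each holding a haem. Red cell precursors in marrow and spleen fill with globin messenger RNA, expel their nucleus and enter the blood as reticulocytes that still carry it, so globin transcripts in a tissue with no blood formation usually come with blood in its vessels. The erythroid enzyme Alas2 starts haem synthesis in those precursors, while Alas1 does so in other tissues. In the testis, vessels run in the interstitium between the seminiferous tubules, beside Leydig cells and macrophages.

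The libraries fell into a pair of sets that cut across the groups. The first set holds Control 1, Control 2 and the first library of each treatment, 6 libraries with a mean log2 value of histone genes between 7.86 and 8.88. In the second set, the other 9, that mean lay between 3.31 and 4.20. The share of mitochondrially encoded genes was 1.08 to 1.40% in the former and 3.54 to 13.7% in the latter. The deposited normalised counts sum to between 2.75e+07 and 4.06e+07 in a library. Their most common low value, here called the step, stood at 1.98 to 2.62 in first-set libraries and at 0.453 to 0.917 in second-set ones. In a library 65 to 202 genes lay at 1 step, 4 to 42 at 2 steps and 0 to 17 at 3 steps. Taken as the worth of 1 read, the step would put the depth near 1.16e+07 to 1.55e+07 reads for the first set, against 3.1e+07 to 6.89e+07 for the second. Only 2.56 to 3.56% of values were whole multiples of the step within 0.01 step. The share that unrelated values would reach was not worked out. Reads could thus not be recovered, these depths are rough, and no counting interval is given.

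Each globin chain is encoded by a pair of nearly identical genes, and the sequences below show how little separates them for a short read. The coding sequences of Hba-a1 and Hba-a2 are 429 bases long and differ at 1 position, C381T (the Hba-a1 base, the position counted from 1 at the A of the start codon, and the Hba-a2 base). Those of Hbb-bs and Hbb-bt are 444 bases long and differ at 1 position, C417T (Hbb-bs first). The stretches that end at these bases, positions 292 to 381 of the alpha pair and 328 to 417 of the beta pair, are printed 5′ to 3′ from the GENCODE M21 transcripts of build GRCm38, with the differing base in capitals.
Hba-a1: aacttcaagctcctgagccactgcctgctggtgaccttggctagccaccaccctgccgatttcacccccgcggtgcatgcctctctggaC
Hba-a2: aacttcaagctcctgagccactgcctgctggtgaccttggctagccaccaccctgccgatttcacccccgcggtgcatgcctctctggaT
Hbb-bs: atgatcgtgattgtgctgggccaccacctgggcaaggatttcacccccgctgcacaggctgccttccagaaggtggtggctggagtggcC
Hbb-bt: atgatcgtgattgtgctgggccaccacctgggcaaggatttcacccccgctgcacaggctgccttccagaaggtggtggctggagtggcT
Over the whole annotated transcripts, 71.3% of the 31-base words of Hba-a1 (699 bases) occur in Hba-a2, and 91.0% of those of Hba-a2 (554 bases) occur in Hba-a1. For the beta pair the shares are 66.9% of Hbb-bs (628 bases) and 59.4% of Hbb-bt (703 bases). The split of reads within a pair therefore depends on bases outside the coding sequence and on the estimate of the quantifier. Single values of each globin gene are thus uncertain. Sums over a pair are free of the split only if no gene-wise length factor entered the normalisation. The sources used here do not state this. Alas2, with 2037 bases, shares no such word with a globin copy.

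The promoters are shown as a description of the sequence before each gene, and their part in the differences between libraries was not tested. The windows hold the 150 bases before the annotated start in RefSeq (GRCm38.p6), in the direction of transcription. They were searched on both strands for the TATA box letters TATAA, for the box CCAAT, for CACCC, which KLF1 and its relatives bind, and for GATAA, which GATA factors bind; matches to these 4 motifs are in capitals. Hba-a1 lies at chr11:32283522-32283671 on the plus strand. The window of Hba-a2, at chr11:32296342-32296491 on the plus strand, matches it at all 147 bases they share at an offset of 3. Hbb-bs lies at chr7:103827929-103828078 and Hbb-bt at chr7:103813924-103814073, both on the minus strand, and Alas2 at chrX:150547267-150547416 on the plus strand.
Hba-a1: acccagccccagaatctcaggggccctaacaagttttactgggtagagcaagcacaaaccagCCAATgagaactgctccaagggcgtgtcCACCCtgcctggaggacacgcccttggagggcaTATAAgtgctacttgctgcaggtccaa
Hbb-bs: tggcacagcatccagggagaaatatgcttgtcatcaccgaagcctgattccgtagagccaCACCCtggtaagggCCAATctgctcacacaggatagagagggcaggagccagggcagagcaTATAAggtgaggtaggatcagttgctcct
Hbb-bt: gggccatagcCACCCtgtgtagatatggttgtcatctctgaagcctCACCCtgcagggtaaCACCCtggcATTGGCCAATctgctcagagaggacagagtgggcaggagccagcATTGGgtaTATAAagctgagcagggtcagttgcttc
Alas2: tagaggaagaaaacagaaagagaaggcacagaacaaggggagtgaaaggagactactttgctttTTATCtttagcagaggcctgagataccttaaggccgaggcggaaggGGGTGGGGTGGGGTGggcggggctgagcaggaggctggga
All 4 globin windows hold TATAA, which begins at position -27 in Hba-a1 and -29 in Hbb-bs (-1 is the base before the start), together with CCAAT and with CACCC, and none holds GATAA. Hbb-bt has 3 matches each of CCAAT, of which 2 lie side by side on opposite strands, and of CACCC. No match overlaps another. The Alas2 window holds neither TATAA nor CCAAT but 1 GATAA and 3 CACCC, all read on the other strand. Among the 32851 promoters of the same length in the table, 14.2% held TATAA, 24.5% held CCAAT, 37.4% held CACCC and 13.3% held GATAA. A match is a description of the letters and not a binding site.

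The alpha-globin genes varied widely between libraries of the same group. Normalised counts of Hba-a1 (ENSMUSG00000069919) in replicates 1, 2 and 3 were 197, 458 and 365 in Control, 326, 165 and 1023 in MTX, 305, 297 and 765 in HMS-I1, 439, 326 and 343 in AA, and 446, 295 and 671 in TSA. The third MTX, HMS-I1 and TSA libraries were the 3 highest, and all 5 groups overlapped. Those of Hba-a2 (ENSMUSG00000069917) were 194, 293 and 1184 in Control, 317, 716 and 2372 in MTX, 202, 890 and 1173 in HMS-I1, 362, 562 and 465 in AA, and 362, 818 and 981 in TSA. MTX 3 was again the highest and Control 3 the second, and the 6 libraries of the first set, at 194 to 362, all lay below the 9 of the second, at 465 to 2372. From lowest to highest library, Hba-a1 spanned 6.21-fold and Hba-a2 12.2-fold.

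The beta-globin genes showed the same high libraries without the shift between sets. Hbb-bs (ENSMUSG00000052305), the more abundant adult beta gene here, stood at 445, 847 and 926 in Control, 891, 570 and 3901 in MTX, 497, 694 and 2061 in HMS-I1, 814, 867 and 579 in AA, and 1041, 575 and 1648 in TSA. Hbb-bt (ENSMUSG00000073940), its neighbour with a nearly identical coding sequence, stood at 95.4, 176 and 212 in Control, 182, 115 and 718 in MTX, 103, 134 and 435 in HMS-I1, 169, 159 and 106 in AA, and 185, 132 and 285 in TSA. For both genes MTX 3, HMS-I1 3 and TSA 3 were the 3 highest, in that order, Control 1 was the lowest, and the ranges of all groups overlapped. Against the median of the 15 libraries, Hbb-bs was 4.61-fold in MTX 3, 2.43-fold in HMS-I1 3 and 1.95-fold in TSA 3. The span from lowest to highest was 8.76-fold for Hbb-bs and 7.52-fold for Hbb-bt.

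Alas2 (ENSMUSG00000025270), which condenses glycine and succinyl-CoA in the first step of haem synthesis, moved far less. Its normalised counts were 545, 569 and 778 in Control, 568, 577 and 943 in MTX, 572, 654 and 1112 in HMS-I1, 577, 771 and 781 in AA, and 640, 597 and 1064 in TSA. The same 3 libraries were highest, now with HMS-I1 3 first, and the whole span was 2.04-fold. Within the first set it ran only from 545 to 640, a span of 1.17-fold over 6 libraries in which Hbb-bs spanned 2.34-fold. MTX 3, where Hbb-bs was 4.61-fold its median, held Alas2 at 1.47-fold its own.

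**Figure D1:**
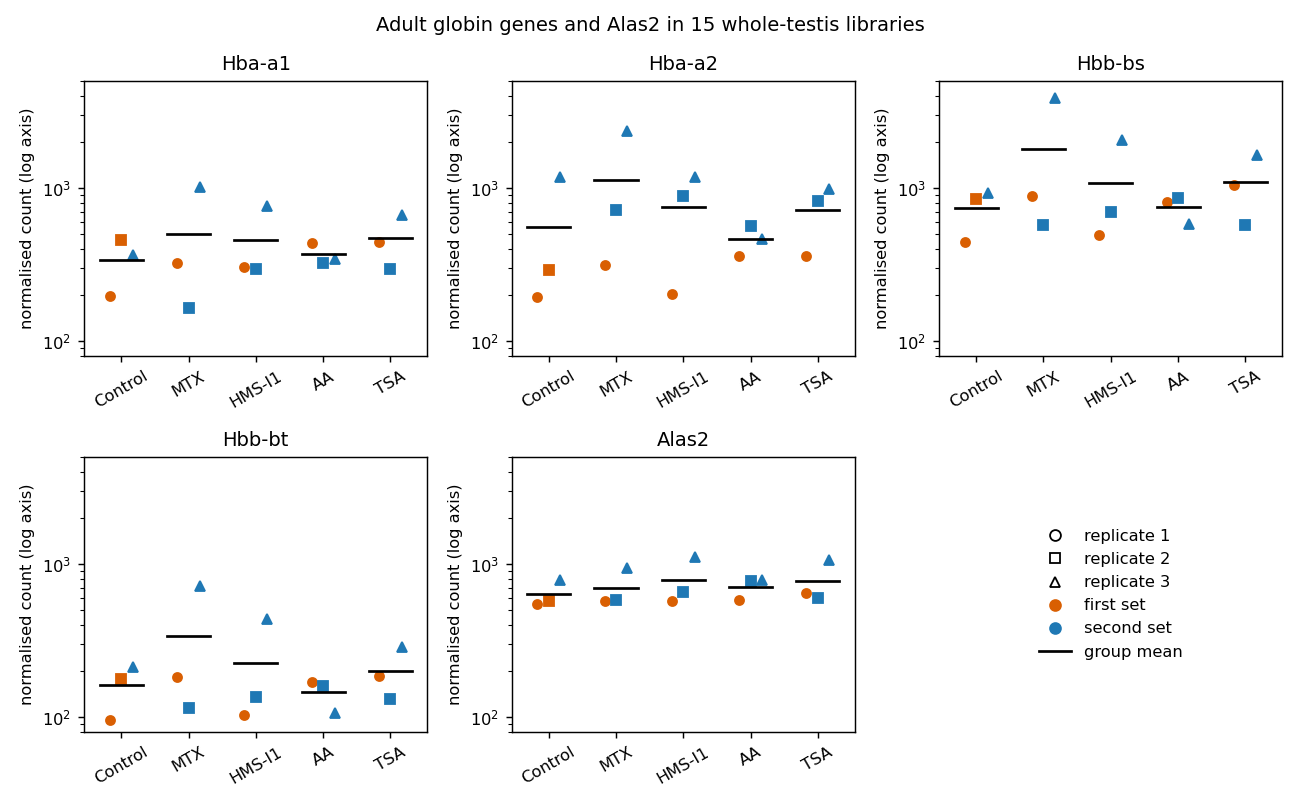
Normalised counts of the 5 genes in each library (log axis), by group, with the replicate as the shape, the library set as the colour and the group mean as a line. The triangles of MTX, HMS-I1 and TSA are the highest points of their groups for every gene, MTX 3 reaching 3901 for Hbb-bs, while Alas2 stays between 545 and 1112.

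Group means followed those single libraries. For Hbb-bs the means ± SD (n = 3) ran from 739 ± 258 in Control and 753 ± 153 in AA through 1084 ± 852 in HMS-I1 and 1088 ± 538 in TSA to 1788 ± 1837 in MTX. For Hba-a1 the order was Control at 340 ± 132, AA at 369 ± 60.7, HMS-I1 at 456 ± 268, TSA at 471 ± 189 and MTX at 504 ± 456. For Alas2 it was Control at 631 ± 128, MTX at 696 ± 214, AA at 710 ± 115, TSA at 767 ± 258 and HMS-I1 at 779 ± 291. In these orders every gap between neighbours was smaller than the larger of their SDs. For Hbb-bt the lowest mean was that of AA, at 145 ± 33.7, and the highest that of MTX, at 338 ± 331, and for Hba-a2 the same groups lay at the ends, with the MTX mean at 1135 ± 1090.

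Transcripts of the 5 genes were a minute part of each library. The 4 globins summed to between 30.2 and 266 ppm of the normalised total, with a median of 58.2 ppm. MTX 3 held 266, HMS-I1 3 160 and TSA 3 130, and the other 12 libraries lay between 30.2 in Control 1 and 80.2 in Control 3. With Alas2 included, the share averaged 0.00750% ± 0.00278 (SD, n = 3) in Control, 0.0142% ± 0.0135 in MTX, 0.0109% ± 0.00794 in HMS-I1, 0.00826% ± 0.00102 in AA and 0.0111% ± 0.00502 in TSA. Without MTX 3 the MTX mean was 0.00638%, without HMS-I1 3 that of HMS-I1 was 0.00638%, and without TSA 3 that of TSA was 0.00823%. Alas2, which moved far less than the globins, stood at 0.118 to 0.585 of their sum across libraries, so this share follows the globins only in part. Whether its transcripts came from red cells was not tested. As these are bulk libraries, fewer cells of a type and less RNA per cell cannot be told apart, and more blood cannot be told apart from less RNA of the testis itself. Within the second set, the 3 libraries high in globin also had the lowest mitochondrial shares, 5.08% in MTX 3, 3.54% in HMS-I1 3 and 4.52% in TSA 3 against 5.95 to 13.7% in the other 6; the part of this in the globin values was not tested.

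The beta genes kept a steady proportion, and the alpha genes did not. The ratio of Hbb-bs to Hbb-bt lay between 4.36 and 5.78 in all 15 libraries, a 1.33-fold range for genes that each spanned more than 7-fold. The beta pair also shares most of its 31-base words, and the part of the division of shared reads in this ratio was not tested. Hba-a2 over Hba-a1 lay between 0.641 and 0.989 in the 6 libraries of the first set and between 1.35 and 4.35 in the 9 of the second, with no overlap. The sets were split by histone genes and not by globins. Within the second set the ratio was highest in MTX 2 at 4.35, Control 3 at 3.24 and HMS-I1 2 at 3.00, and lowest in AA 3 at 1.35. Since the alpha pair differs at 1 coding base, a change in how shared reads were divided and a change in the genes' own transcripts cannot be told apart in this table.

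Summed over each pair, alpha over beta transcripts ranged from 0.599 to 0.845 across the first set, and across the second from 0.735 to 1.57. The 3 libraries richest in globin were at 0.735 for MTX 3, 0.777 for HMS-I1 3 and 0.855 for TSA 3, inside the range of the first set or close above it. Ratios over 1 occurred in Control 3 (1.36), MTX 2 (1.29), HMS-I1 2 (1.43), AA 3 (1.18) and TSA 2 (1.57), which all belong to the second set and are not its globin-rich libraries. Of these, MTX 2, Control 3, HMS-I1 2 and TSA 2 also had the highest ratios of Hba-a2 to Hba-a1, and AA 3 the lowest of the second set. Whether the split of reads enters these sums was not tested. Alas2 over summed globin was highest in Control 1, the library with the least globin, at 0.585, and lowest in MTX 3, the one with the most, at 0.118.

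**Figure D2:**
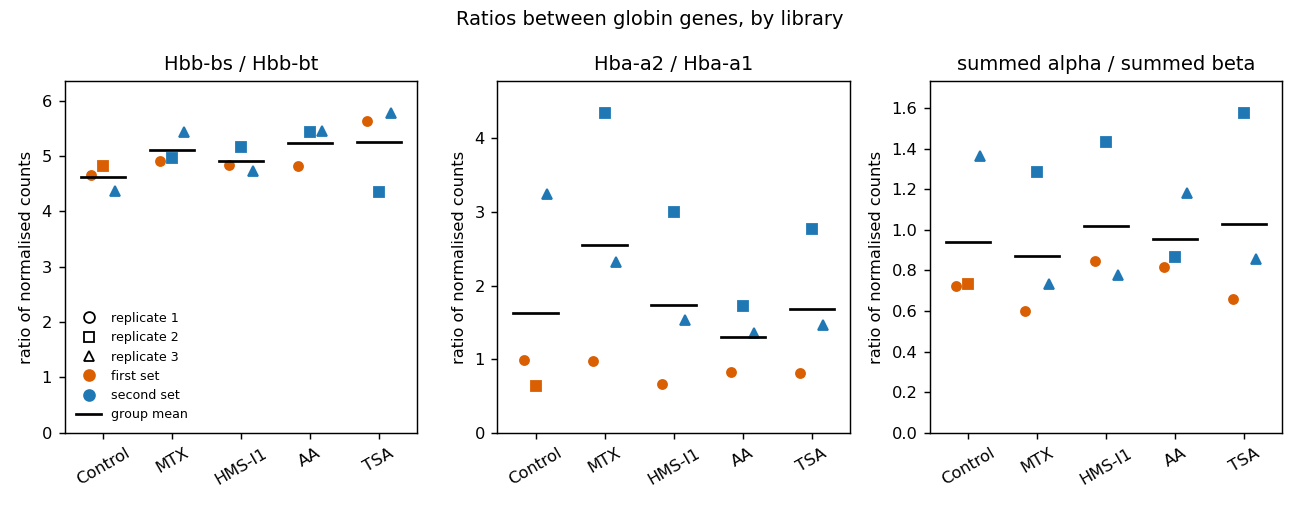
Ratios of normalised counts in each library for Hbb-bs over Hbb-bt, Hba-a2 over Hba-a1 and summed alpha over summed beta globin, with shapes for replicates, colours for the library sets and lines for group means. The beta ratio stays between 4.36 and 5.78, whereas every first-set library has an alpha ratio under 1 and every second-set library one of at least 1.35.

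The 10 pairs of the 5 genes were correlated on the log2 scale within each set, 20 relations in all, with exact two-sided permutation p-values adjusted by Benjamini and Hochberg over the 20. Hbb-bs and Hbb-bt were the closest pair in both sets. They share most of their 31-base words, and the part of shared reads in their r was not tested. In the first set (n = 6) they gave r = 0.986 (exact permutation p = 0.00139, adjusted 0.00556) and rho = 1 (exact p = 0.00278, adjusted 0.0139). In the second (n = 9) they gave r = 0.989 (exact permutation p = 1.1e-05, adjusted 0.00022) and rho = 0.95 (exact p = 0.000353, adjusted 0.00353). Without the 2 libraries farthest from the median, r was 0.875 for the first set (Control 1 and HMS-I1 1 left out) and 0.960 for the second (HMS-I1 3 and MTX 3 left out). Here and below the distance was taken on a single gene of the pair, and TSA 3, also rich in globin, was kept. These values therefore do not show the relations without all the globin-rich libraries.

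Alpha and beta genes also moved together by r in the second set, although by rho Hba-a2 with Hbb-bs did not pass. There Hba-a1 against Hbb-bs gave r = 0.933 (exact permutation p = 0.000174, adjusted 0.00174) and rho = 0.95 (exact p = 0.000353, adjusted 0.00353), and r = 0.836 without HMS-I1 3 and MTX 3 but with TSA 3 kept. In the first set the same pair gave r = 0.840 (exact permutation p = 0.0222, adjusted 0.0370) and rho = 0.714 (exact p = 0.136, adjusted 0.181), but r = 0.0253 without Control 1 and HMS-I1 1. Leaving out the farthest 2 of 6 libraries narrows the range by construction, so this fall does not show what the relation rests on. Hba-a2 against Hbb-bs gave r = 0.829 in the second set (exact permutation p = 0.00464, adjusted 0.0133), with rho = 0.767 (exact p = 0.0214, adjusted 0.0535), and r = 0.561 without AA 3 and MTX 3. In the first set that pair gave r = 0.952 (exact permutation p = 0.0208, adjusted 0.0370) and rho = 0.829 (exact p = 0.0583, adjusted 0.0972). Hba-a1 and Hba-a2, whose promoters and coding sequences are nearly identical, gave only r = 0.706 in the second set (exact permutation p = 0.0307, adjusted 0.0426), with rho = 0.683 (exact p = 0.0503, adjusted 0.0972), and r = 0.286 without HMS-I1 3 and MTX 3. In the first set they gave r = 0.829 (exact permutation p = 0.0319, adjusted 0.0426) and rho = 0.657 (exact p = 0.175, adjusted 0.219).

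Alas2 passed with 2 of the 4 globins by both measures in the second set. Its r was 0.896 with Hba-a1 (exact permutation p = 0.00177, adjusted 0.00591), with rho = 0.933 (exact p = 0.00075, adjusted 0.005), and r = 0.917 without HMS-I1 3 and MTX 3. With Hbb-bs it was r = 0.814 (exact permutation p = 0.00753, adjusted 0.0188) and rho = 0.850 (exact p = 0.00607, adjusted 0.0202), and r = 0.882 without those libraries but with TSA 3 kept. With Hbb-bt, r = 0.783 passed (exact permutation p = 0.0132, adjusted 0.0294) and rho = 0.7 did not (exact p = 0.0433, adjusted 0.0961). With Hba-a2 it did not pass, at r = 0.448 (exact permutation p = 0.229, adjusted 0.241) and rho = 0.483 (exact p = 0.194, adjusted 0.228). In the first set none of the 4 relations of Alas2 to a globin passed, with r from 0.560 to 0.685 and adjusted exact permutation p from 0.134 to 0.289. Whether the relations differ between the sets was not tested.

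For none of the 5 genes did a difference from Control pass the threshold. In limma fits over 17896 genes, 0 genes, or 0%, had an adjusted p under 0.05 in each of the 4 comparisons and in the F-test over the 5 groups. At an unadjusted p under 0.05 there were 98 genes for MTX, 73 for HMS-I1, 143 for AA, 1027 for TSA and 230 for the F-test, and none of the 5 was among them. Leaving out TSA 1 brought 992 genes under the threshold for TSA and 246 in the F-test, with no globin and no Alas2 among them. All 4 comparisons share the Control libraries.

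Under MTX, Hba-a2, Hbb-bs and Hbb-bt had their largest fitted differences of the 4 treatments, with wide intervals, and Alas2 its smallest. On the log2 scale, MTX minus Control was 0.25 (SE 0.59) for Hba-a1, 1.00 (SE 0.83) for Hba-a2, 0.83 (SE 0.68) for Hbb-bs, 0.69 (SE 0.66) for Hbb-bt and 0.12 (SE 0.32) for Alas2, each with a limma adjusted p of 1. The 95% interval for Hbb-bs ran from -0.63 to 2.30, and that for Alas2 from -0.58 to 0.81. The median over the 5 genes was 0.69, with 5 of 5 above 0, where 8574 of all 17896 genes were above 0 and their median was -0.01. With the library set as a term the median was 0.43, with 4 of 5 above 0. Without MTX 3, Hba-a1 stood at -0.47, Hbb-bt at -0.08 and Alas2 at -0.12, with Hba-a2 at 0.22 and Hbb-bs at 0.02.

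Under HMS-I1 the differences of Hba-a2, Hbb-bs and Hbb-bt were smaller than under MTX and those of Hba-a1 and Alas2 larger, and 4 of the 5 changed sign without HMS-I1 3. They were 0.36 for Hba-a1, 0.55 for Hba-a2, 0.34 for Hbb-bs, 0.25 for Hbb-bt and 0.26 for Alas2, with the same SEs and limma adjusted p-values of 1. The median was 0.34, with 5 of 5 above 0, against -0.02 and 8572 of 17896 for all genes; with the set as a term it was 0.11, with 4 of 5 above 0. Without HMS-I1 3, Hbb-bs was at -0.26, Hbb-bt at -0.38, Hba-a1 at -0.09 and Alas2 at -0.03, and only Hba-a2, at 0.06, lay above 0.

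TSA gave 0.47 for Hba-a1, 0.70 for Hba-a2, 0.50 for Hbb-bs, 0.32 for Hbb-bt and 0.25 for Alas2, with limma adjusted p-values from 0.886 to 0.922. The median of 0.47, with 5 of 5 above 0, stood beside 0.01 and 9038 of 17896 for all genes, and was 0.17, with 5 of 5 above 0, with the set as a term. Without TSA 3, Alas2 was at -0.01 and Hbb-bs at 0.14. AA was the nearest to Control for the 4 globins, at 0.19 for Hba-a1, 0.16 for Hba-a2, 0.07 for Hbb-bs and -0.10 for Hbb-bt. Alas2 in AA was at 0.17, and the 5 had limma adjusted p-values of 1.00. Its median was 0.16, with 4 of 5 above 0, against -0.02 and 8473 of 17896 for all genes, and with the set as a term it turned to -0.08, with 2 of 5 above 0.

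**Figure D3:**
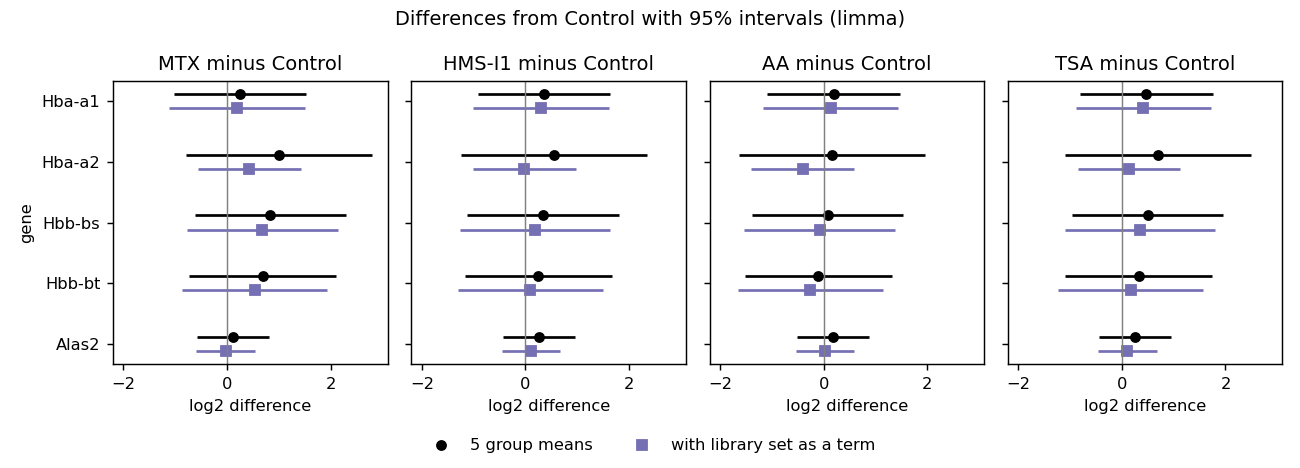
Log2 differences of each treatment from Control for the 5 genes with 95% intervals, from the limma fit of 5 group means (black circles) and with the library set as a term (purple squares). All 40 intervals cross 0; with the set as a term Hba-a2 moves from 1.00 to 0.43 in MTX and from 0.16 to -0.40 in AA.

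Because the sets are unevenly spread over the groups (Control has 2 libraries in the first set, each treatment 1), values were also taken within sets, as differences without a test. In the first set, where each treatment has 1 library against 2 of Control, Hbb-bs differed from Control by 0.54 in MTX, -0.30 in HMS-I1, 0.41 in AA and 0.76 in TSA on the log2 scale. In the second set, with 2 libraries against 1, it differed by 0.69, 0.37, -0.39 and 0.07. For Hbb-bs the MTX mean was thus above Control in both sets, and HMS-I1 and AA changed sign between them. In the second set the MTX value rests on MTX 3, at 3901, as MTX 2, at 570, lay below Control 3, at 926. HMS-I1 2 (694) and TSA 2 (575) were below Control 3 too, and HMS-I1 3 (2061) and TSA 3 (1648) above it. Hba-a2 was above Control in the first set under MTX, AA and TSA, by 0.41, 0.60 and 0.60. In the second it was below under AA, by -1.21, and TSA, by -0.40, and above by 0.14 under MTX; under HMS-I1 it was at -0.24 and -0.21. Alas2 lay within -0.08 and 0.20 of Control in all 8 of these differences.

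Variation inside groups set the width of these intervals. The pooled SD within groups on the log2 scale was 0.80 for Hba-a1, 1.14 for Hba-a2, 0.92 for Hbb-bs and 0.88 for Hbb-bt, which put them at percentiles 74.1, 89.2, 81.4 and 79.4 of all genes tested; the median gene had 0.55. Alas2, at 0.39, was at percentile 29.0. With the set taken out as well, Hbb-bs moved to percentile 93.2 and Hbb-bt to 92.2, Hba-a2 fell to 79.4, and Alas2 was at 37.6.

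As a gauge of blood, the mean log2 value of the 5 genes was entered as a term in the fit of all 17896 genes. Calls were 0 in every comparison with it, as without. At an unadjusted p under 0.05 the numbers of genes went from 98 to 167 for MTX, 73 to 82 for HMS-I1, 143 to 185 for AA and 1027 to 751 for TSA, and from 230 to 266 in the F-test. Since no gene was called without the term either, these counts do not show what part the red cell genes had in group differences. The term was not tried on the 992 genes called for TSA without TSA 1.

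Levels between genes were compared per kb of the longest coding transcript. Over the 15 libraries the median normalised count per kb was 1348 for Hbb-bs, 1014 for Hba-a2, 491 for Hba-a1, 314 for Alas2 and 240 for Hbb-bt. In the haem pathway, the housekeeping enzyme Alas1 was at 708, the next enzyme, Alad, at 414, and the mitochondrial porphyrin carrier Tmem14c at 524. Alas2 thus lay among the ubiquitous enzymes of its pathway. Of the 12 haem synthesis genes besides Alas2, 0 were called in any comparison; their median log2 difference was 0.01 in MTX, 0.04 in HMS-I1, 0.05 in AA and 0.20 in TSA, with 6, 7, 7 and 10 of 12 above 0, and -0.02, 0.03, 0.05 and 0.17 with the set as a term.

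Other defining red cell transcripts were nearly absent. Slc4a1, the band 3 anion exchanger of the red cell membrane, had a median of 0.44 per kb; its normalised counts ran from 0 in 4 of the 15 libraries to 11.1 in MTX 3. Epb42, which anchors band 3, Rhag, of the Rh complex, and Tspo2 had medians of 0. The embryonic globins Hba-x, Hbb-bh1 and Hbb-bh2 were listed at 0 in all 15 libraries, and the embryonic Hbb-y reached at most 5.71. Of the 28 membrane and erythroid genes on the list, 26 were found and 18 reached a mean of 10.

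Some genes of that list were abundant. Hemgn, a nuclear protein of blood precursors with a transcript in testis, had a median of 1666 per kb, and Bpgm, which makes the red cell's 2,3-bisphosphoglycerate, 1400. Gata1, the erythroid transcription factor that Sertoli cells also express, had 165, and TSA 3, HMS-I1 3 and MTX 3 were among its 4 highest libraries, at normalised counts of 595, 489 and 378, with AA 3 at 443. Hemgn stood at 118 in TSA 2 and 1048 in TSA 3, against 2656 to 6282 in the other 13 libraries, a limma difference of TSA from Control that did not pass (adjusted p = 0.848). Over the 18 tested genes the median log2 difference was -0.14 in MTX, 0.07 in HMS-I1, -0.04 in AA and -0.26 in TSA, and 0 were called; with the set as a term it was -0.12, 0.02, -0.04 and -0.19.

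**Figure D4:**
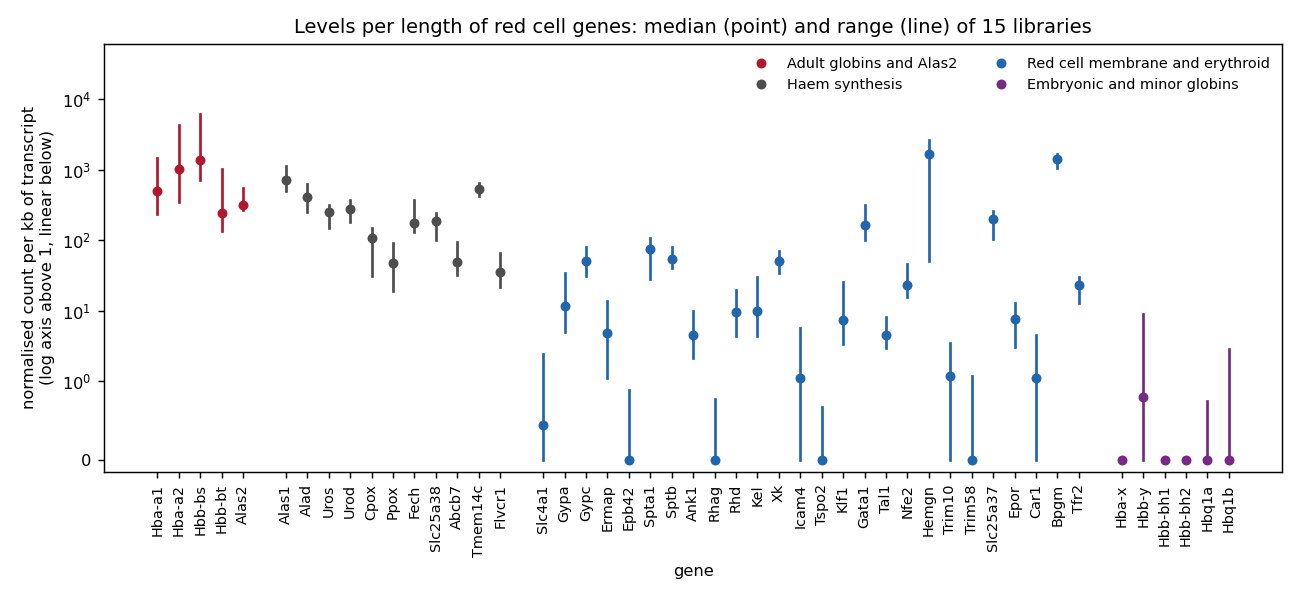
Normalised counts per kb of transcript for red cell and haem genes, with the median of 15 libraries as a point and the range as a line (log axis above 1, linear below). The adult globins and Alas2 sit at 240 to 1348, within or above the haem enzymes, while Slc4a1, Epb42, Rhag and the embryonic globins are at or near 0.

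Markers of the other cells of blood were looked at beside the globins. Of 13 platelet genes 6 had a mean of 10 or more. The sum over all 13 ranged from 206 to 413 and was 289 to 396 in MTX 3, HMS-I1 3 and TSA 3. The chemokine Pf4 stood at 70.5 to 168, while the platelet-defining Ppbp and Gp9 had means of 2.18 and 0.287. Among neutrophil genes Ly6g was 0 in all libraries and S100a8 ran from 0 to 30.99, highest in AA 1, whereas Lcn2, at 5052 to 19765, made up nearly all of the list's sum. The lymphocyte genes summed to 381 to 1101, with the highest sum in MTX 3, where Gzma, a granule protease of killer cells, stood at 196 against 0 to 139 elsewhere. Ly6c2, a marker of blood monocytes, was likewise highest in MTX 3, at 231, but stood at 13.5 in HMS-I1 3 and 25.9 in TSA 3. Endothelial genes summed to 2211 to 3211 in the 3 globin-rich libraries and to 1717 to 3311 in all. The part of these cells in the globin values was not tested.

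In the 4 comparisons none of these lists had a called gene. The median log2 difference of the 12 lymphocyte genes tested was 0.81 in MTX (10 of 12 above 0), -0.34 in HMS-I1, 0.05 in AA and 0.25 in TSA. That of the 6 platelet genes was -0.52 in MTX, -0.08 in HMS-I1, -0.08 in AA and -0.11 in TSA. For 13 endothelial genes it was -0.11, 0.07, 0.40 and 0.21. Among the 16 tested genes of haem breakdown and iron handling, such as the haem oxygenases Hmox1 and Hmox2 and the ferritin chains, it was 0.05, 0.15, 0.32 and 0.15. In the same order of treatments, it was 0.18, -0.09, 0.12 and 0.08 for 5 neutrophil genes and 0.25, 0.10, 0.60 and 0.38 for 15 macrophage and monocyte genes. With the library set as a term several of these medians turned or shrank: the lymphocyte ones were 0.42, -0.61, -0.10 and -0.11, the platelet ones -0.28, -0.12, -0.23 and -0.05, and the endothelial ones -0.28, -0.13, 0.13 and 0.03. Those of haem breakdown and iron handling were then -0.07, 0.03, 0.18 and 0.06, of neutrophil genes 0.13, -0.20, -0.21 and -0.28, and of macrophage and monocyte genes 0.06, -0.17, 0.27 and -0.02.

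The cells of the testis itself were represented in all libraries. Spermatocyte and spermatid genes, such as Sycp3 and Prm1, were all 12 among the genes tested and summed to at least 282325 in every library; their median log2 difference was -0.0048 in MTX, -0.23 in HMS-I1, -0.17 in AA and -0.59 in TSA, with 5, 2, 3 and 1 of 12 above 0. The 8 Leydig genes had medians of 0.03, 0.34, 0.50 and 0.52, the 10 Sertoli genes -0.09, 0.20, 0.29 and 0.43, and the globins outside red cells (3 tested, Adgb, Cygb and Ngb) -0.10, -0.09, 0.17 and -0.31. The 13 mitochondrially encoded genes had 1.12, 0.71, 0.96 and 0.98, all of them above 0 in each comparison. With the library set as a term 6 of these 13 were above 0 in MTX, 0 in HMS-I1, 1 in AA and 3 in TSA. On that fit the Leydig medians were -0.10, 0.13, 0.34 and 0.28, and the Sertoli medians -0.25 (0 of 10 above 0), -0.11, -0.02 and 0.19. Those of spermatocyte and spermatid genes were then -0.04, -0.04, -0.15 and -0.52, and of the globins outside red cells -0.18, -0.33, 0.10 and 0.01. None of these genes was called, and the part of these lists in the globin differences was not tested.

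The genes most like the 5 were sought by the correlation of their log2 values, after subtraction of each set's mean, with the mean of the 5 over the 15 libraries, which share groups, depth and scaling; no p is attached. The highest r belonged to Rps25 (0.947), Immp2l (0.934), Dtymk (0.929), Fau (0.926), Rbks (0.922), Rplp1 (0.920), Tmem134 (0.916), Mrpl20 (0.914), Sdhb (0.914) and Adh4 (0.912). Rps25, Fau, Rplp1 and Mrpl20 encode ribosomal proteins, Immp2l and Sdhb proteins of mitochondria, and none is a red cell marker. Among the 17891 other genes 461 had r of at least 0.8 and 537 of at most -0.8. The 5 themselves had 0.991 for Hbb-bt, 0.990 for Hbb-bs, 0.946 for Hba-a1, 0.874 for Hba-a2 and 0.796 for Alas2, with a mean they are part of. By list, the median r was 0.35 for haem synthesis, 0.04 for membrane and erythroid genes (from -0.66 for Xk to 0.58 for Rhd and 0.81 for Epor, the erythropoietin receptor, named after their values were seen) and -0.76 for the 13 mitochondrially encoded genes, of which the lowest had -0.86.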

How the data were processed

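The deposited signal values are normalised counts of 36118 Ensembl genes in 15 libraries. The submitters' processing notes list Salmon 0.12.0, DESeq2 1.34.0, FastQC 0.11.9 and the build GRCm39; strand and index settings are not given in the sources used here. A symbol was found by Ensembl number for 35825 genes. Coordinates and sequences come from GRCm38 annotation, not the build of the table, and serve as description. Tests used log2(normalised count + 1), a scale on which folds of low genes are understated. Genes with a mean of at least 10, 17896 in number, were fitted with limma 3.58.1 in R 4.3.3 (lmFit, eBayes with trend), 5 group means, 10 residual degrees of freedom, two-sided, Benjamini and Hochberg adjustment within each comparison at 0.05. Library sets were split at the largest gap in the mean log2 value of 63 histone genes. Deviations of same-numbered libraries of different groups correlated from -0.58 to 0.76 (median 0.46, against -0.33 for different numbers); as not every pair was above 0.1, the numbers were not taken to pair them. The fits were checked on simulated data.

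Named were all 5 genes, the counts, medians and leading or defining members of 14 other gene lists (183 of 185 symbols of all lists matched), and the 10 genes most alike. Slc4a1, Gzma, Ly6c2, Hemgn, Epor, Rhd and Xk were chosen after their values were seen. The values of 1 haem synthesis gene are not reported here. The genes, lists and library sets were chosen with earlier results of these data known. Alternatives were the pseudocount, the filter, the scaling, the library set, the replicate block, array weights, the share's denominator and leaving out libraries.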

Additional observations from a re-analysis of the deposited data

How the results depend on the processing

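Depth could not be recovered beyond the steps in low values, and 3 libraries a group leave wide limma intervals, so moderate differences in blood content were not detectable. Counts of called genes were 0 in each comparison under both other pseudocounts, both other filters, both other scalings, the library set, the replicate block (0 in all 5 tests, with unadjusted p under 0.05 for 2748 genes in TSA against 1027 without it), set and block together, and the member mean as a term. Array quality weights gave AA 2 a weight of 38.8 with a warning that the estimate had not converged, so these counts are doubtful; they called 6645 genes for AA, 4234 for TSA and 5640 in the F-test, and there Hba-a2 in AA was called at 1.09 (limma adjusted p = 0.0450), the single such call of the 5 genes; elsewhere their smallest adjusted p was 0.481. Without MTX 3, HMS-I1 3 and TSA 3, an alternative chosen after seeing the data, 1 gene was called for MTX and 1 in the F-test. Leaving out 1 library gave 0 to 1 calls for MTX, HMS-I1 and AA, 0 to 992 for TSA and 0 to 246 in the F-test, the highest without TSA 1. Counting the 4 globins alone, the share in AA was 0.00586%.

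Of 220 differences of the 5 genes under alternatives other than leaving out 1 library, 203 kept their direction and side of the threshold, 16 changed sign and 1 gained a call; of 300 with 1 library left out, 18 changed sign. Without those 3 libraries, MTX values were -0.466 for Hba-a1, -0.0797 for Hbb-bt and -0.122 for Alas2, HMS-I1 values -0.0906 for Hba-a1, -0.261 for Hbb-bs, -0.375 for Hbb-bt and -0.0273 for Alas2, and the TSA value of Alas2 -0.0106. With the set as a term Alas2 in MTX was -0.0269, Hba-a2 in HMS-I1 -0.0176, and in AA Hba-a2 was -0.404 and Hbb-bs -0.0784. With set and replicate block, Hba-a2 in AA was -0.201 and Hbb-bt in AA 0.234, the latter 0.00256 with values scaled to the column total and 0.344 with array weights. With 1 library left out, MTX values ran from -0.47 to 0.85 for Hba-a1, -0.08 to 1.24 for Hbb-bt and -0.12 to 0.28 for Alas2. In HMS-I1 they ran from -0.09 to 0.61 for Hba-a1, -0.26 to 0.76 for Hbb-bs, -0.38 to 0.66 for Hbb-bt and -0.03 to 0.45 for Alas2. In AA they ran from -0.16 to 0.45 for Hba-a1, -0.37 to 0.93 for Hba-a2, -0.25 to 0.27 for Hbb-bs and -0.44 to 0.13 for Hbb-bt, and in TSA from -0.0147 to 0.59 for Hbb-bt and -0.01 to 0.41 for Alas2. The replicate block leaves these differences unchanged by construction, so 20 of the 203 say nothing of stability. It did narrow their limma SEs, which were 0.19 to 0.54 with the block against 0.32 to 0.83 without it, and none of the 5 genes was called. In all, 11 of 15 libraries matched best with a library of their own number. Beyond the left-out libraries, the cause was not tested.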
